A study of Arabidopsis thaliana with 6 samples.

Results

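The genes described here are 10 regulators of the switch to flowering in Arabidopsis thaliana, taken by their locus identifiers from the 28775 features that the authors listed. All 10 were present in every library. They are the promoters of flowering FT, TSF, FD, SOC1 and AGL24 and the repressors SVP, TEM1, TEM2, SMZ and SNZ. FT, made in the phloem companion cells of leaves, moves to the shoot apex. There it acts with FD and turns on SOC1 and the genes that start a flower. The repressors act against this route, SVP as a MADS-box protein on FT and SOC1, and the 4 AP2-domain proteins TEM1, TEM2, SMZ and SNZ mainly on FT.

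The polyadenylated RNA of 2 natural accessions was sequenced: Col-0, the source of the reference genome, and Can-0, an accession collected on the Canary Islands. Both are parents of the MAGIC inbred lines, which come from crosses among many accessions. Seedlings aged 11 days and stage 12 floral buds had grown on soil, and roots aged 10 days on plates, with 16 hours of light, 8 hours of darkness and 20 C throughout. Every combination of accession and tissue is 1 library, which makes 6. Run 33 held both seedling libraries, run 40 both root libraries, run 36 the Col-0 bud and run 35 the Can-0 bud. Tissue and run thus cannot be told apart, nor can root and growth on plates. Within bud, accession and run cannot be told apart either. In runs 33 and 40 the accessions were on different lanes, so accession and lane cannot be told apart within seedling or root. No hour of harvest is given in the labels. Depth was estimated at 21.8 to 22.9 M mapped reads. The summed RPKM of green leaf markers was 11676 (Col-0) and 9675 (Can-0) for seedling but 23.5 and 7.44 for root. In bud the leaf markers summed to 4156 and 3473 RPKM. Root markers reached at most 0.320 RPKM in total in a seedling library. In the buds they summed to 17.1 and 27.1 RPKM, mostly from IRT1 (16.3 and 26.6). Floral organ markers summed to 707 and 926 RPKM in the buds against at most 2.45 elsewhere.

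Levels are in RPKM (reads per kilobase of gene model per M mapped reads) and can therefore be set side by side between genes. Differences are on the log2(RPKM + 1) scale. Tissues were compared over both accessions with limma, which here used the accessions in place of replicates, and a call is an adjusted p under 0.05. Of the 10 genes, 9 reached 1 RPKM in at least 2 libraries and were tested. TSF did not, and FT did so only through the buds, where it was high, so its call against the other tissues was built in. In bulk tissue, fewer cells of a type and less RNA per cell cannot be told apart. Statements on overlap between tissues rest on 2 libraries per tissue. The share of all genes without such overlap was not counted.

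**Figure D1:**
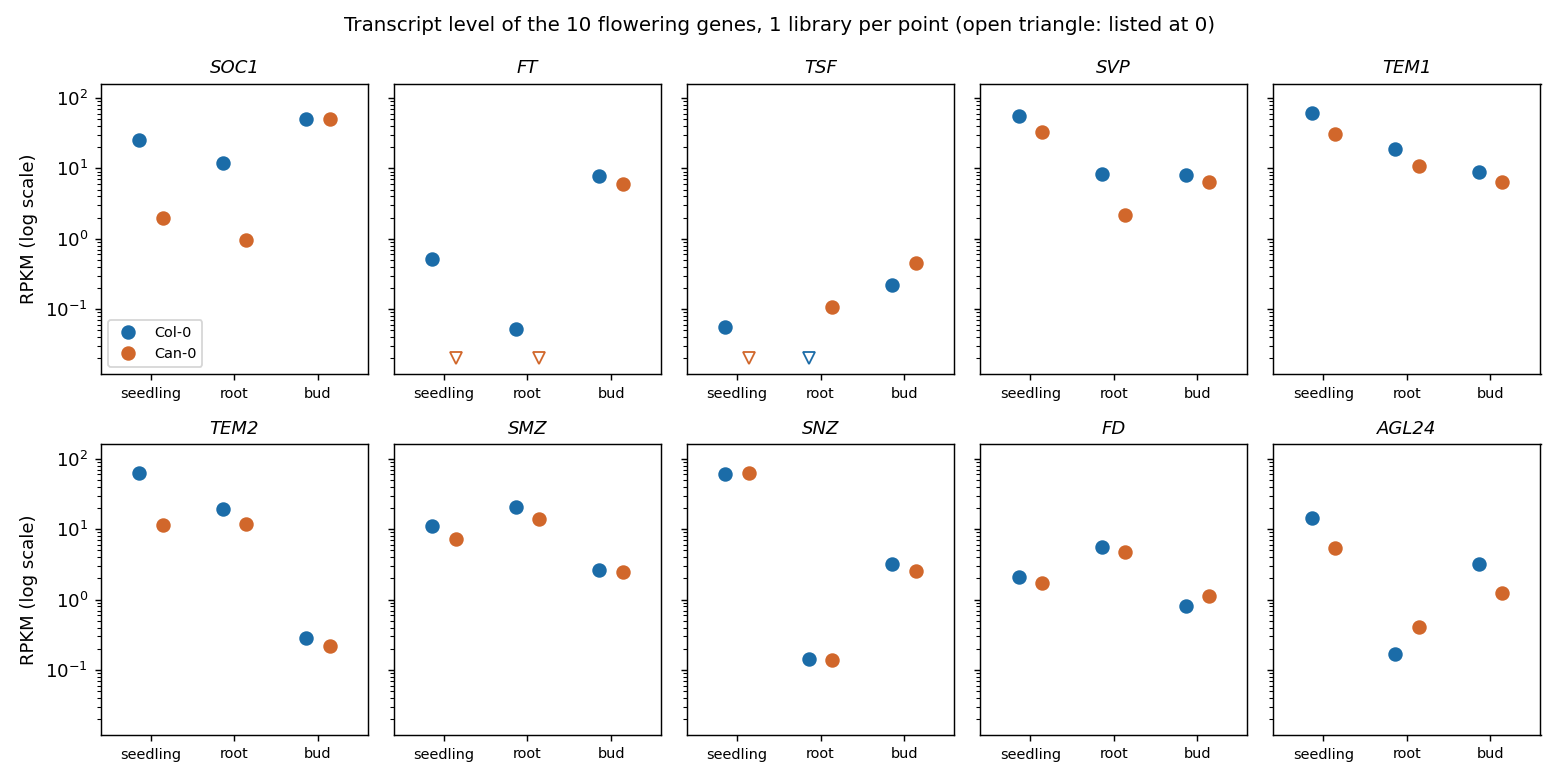
RPKM of each gene (log axis) in seedling, root and floral bud, with 1 point per library and open triangles for values listed at 0. FT is listed at 0 in Can-0 seedling and root, which leaves those tissues without an order. All genes but FT, TSF, SVP and TEM2 keep their order of tissues in both accessions. SOC1 keeps it too, but stands at 25.1 and 1.95 RPKM in Col-0 and Can-0 seedling and at 50.6 RPKM in both buds.

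FT (AT1G65480, chromosome 1, 24331373 to 24333999, plus strand of TAIR10.1), the mobile florigen, was mainly a bud transcript in these libraries. It stood at 7.88 RPKM in Col-0 and 6.03 in Can-0 bud, about 154 and 114 reads. In seedling it stood at 0.517 RPKM in Col-0, about 10 reads, and was listed at 0 in Can-0. In root it stood at 0.0516 RPKM in Col-0, about 1 read, and again at 0 in Can-0. FT reached 1 RPKM in the buds alone, so their standing above the other 4 libraries was built into its test. The same holds for its limma calls. These were 2.68 ± 0.20 SE against seedling (adjusted p = 0.00140) and 2.95 ± 0.20 against root (adjusted p = 0.000481). With 0.1 added in place of 1 these differences were 4.82 and 5.83. Markers of phloem companion cells, the cells that make FT in leaves, were all at 1 RPKM or more in every library. They summed to 244 RPKM in Col-0 and 214 in Can-0 seedling, 62.9 and 63.6 in root and 156 in each bud. Their sum was thus highest in seedling. AHA3 alone went the other way, in Can-0, at 95.3 RPKM in seedling and 107 in bud. The part of companion cells in the FT levels was not tested.

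TSF (AT4G20370, chromosome 4, 11000771 to 11003010, minus strand), the closest relative of FT and a florigen as well, was near the limit of detection throughout. In Col-0 it stood at 0.0553 RPKM in seedling, 0 in root and 0.219 in bud. In Can-0 it stood at 0 in seedling, 0.109 in root and 0.453 in bud. The highest of these rests on about 8 reads. A count of 0 allows up to 0.161 to 0.169 RPKM for a gene of this length over these libraries, for counting error only. FT exceeded TSF by 35.98 times in Col-0 bud and 13.3 times in Can-0 bud, ratios that rest on about 4 and 8 TSF reads. The transcripts of FT and TSF matched at 82.3% over 542 bases, short of the 95% used here to call copies near-identical, and no member had such a copy.

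FD (AT4G35900, chromosome 4, 17004382 to 17006462, plus strand), the bZIP partner of FT at the apex, was highest in root in both accessions. Its level was 5.55 and 4.78 RPKM in Col-0 and Can-0 root, 2.07 and 1.74 in seedling and 0.814 and 1.14 in bud. No tissue overlapped with another. FD was lower in seedling than in root by 1.08 on the log2 scale (-1.08 ± 0.19, adjusted p = 0.00847; -0.70 with quantile normalization). That call was lost without Col-0 root or Can-0 seedling (adjusted p = 0.0719 and 0.0560). FD was also lower in bud than in root (-1.64 ± 0.19, adjusted p = 0.00242). The difference between bud and seedling did not pass (-0.56 ± 0.19, adjusted p = 0.0744), but did so with median-centred values (-1.04, adjusted p = 0.0129) and with quantile normalization (-1.27, adjusted p = 0.00704).

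SOC1 (AT2G45660, chromosome 2, 18807505 to 18811125, minus strand), the MADS-box factor on which the flowering routes converge, gave the widest spread of accessions within a tissue among the 10 genes. In Col-0 it stood at 25.1 RPKM in seedling, 11.9 in root and 50.6 in bud. In Can-0 it stood at 1.95 RPKM in seedling, 0.959 in root and 50.6 in bud. Both accessions had the order bud, seedling, root, but the bud held 57.8% of the sum over tissues in Col-0 and 94.6% in Can-0. Bud exceeded root in the fit (3.36 ± 0.81, adjusted p = 0.0228), without Can-0 root at adjusted p = 0.0998, and by 1.89 without Can-0 bud. Bud against seedling was 2.56 ± 0.81 (adjusted p = 0.0602), and passed without Col-0 bud (adjusted p = 0.0199) or without Col-0 seedling (adjusted p = 0.0493). Seedling against root was 0.80 ± 0.81 (adjusted p = 0.443), and passed without Col-0 bud (adjusted p = 0.0305) or without Can-0 bud (adjusted p = 0.0310). Seedling and root overlapped, and both buds lay above them. The shoot apical meristem is a site of SOC1 expression. Its markers summed to 25.2 and 27.04 RPKM in seedling, 21.6 and 18.8 for root and 87.6 and 94.98 for bud. The stem-cell gene WUS was at 0 in both seedlings and at 11.1 and 16.3 RPKM in bud. CLV3 was at 0 in both seedlings and at most 0.0558 RPKM in bud. STM and KNAT1 were higher in bud than in seedling. CLV1 was lower, at 10.2 and 14.3 RPKM in bud against 19.2 and 21.4 in seedling. The part of these markers in the SOC1 levels was not tested.

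AGL24 (AT4G24540, chromosome 4, 12670897 to 12674106, minus strand), a MADS-box promoter of flowering that acts with SOC1, was a shoot transcript. Its level was 14.5 and 5.36 RPKM in Col-0 and Can-0 seedling, 0.168 and 0.415 in root and 3.20 and 1.24 in bud. Every seedling value lay above every bud value, and those above every root value. AGL24 was higher in seedling than in root (2.95 ± 0.41, adjusted p = 0.00413; 4.59 with 0.1 added in place of 1). It was lower in bud than in seedling (-1.69 ± 0.41, adjusted p = 0.0300). That call was lost without Col-0 seedling, Col-0 bud or Can-0 bud (adjusted p = 0.116 to 0.169), with 0.1 added (adjusted p = 0.0660) and without the filter on low values (adjusted p = 0.0504). Bud against root did not pass (1.26 ± 0.41, adjusted p = 0.0552), but passed with 0.1 added (2.50, adjusted p = 0.0335) and without Col-0 seedling, Can-0 seedling or Can-0 root (adjusted p = 0.0401, 0.0391 and 0.00934).

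SVP (AT2G22540, chromosome 2, 9579647 to 9583901, plus strand), the relative of AGL24 that represses FT and SOC1, had its highest level in seedling. It stood at 56.3 and 33.1 RPKM in Col-0 and Can-0 seedling, 8.26 and 2.16 in root and 8.19 and 6.42 in bud. Seedling stood clear of the other tissues, while root and bud overlapped. SVP was higher in seedling than in root (3.03 ± 0.32, adjusted p = 0.00178) and lower in bud than in seedling (-2.42 ± 0.32, adjusted p = 0.00572). Bud against root was 0.61 ± 0.32 (adjusted p = 0.165; 1.12 and adjusted p = 0.0253 without Col-0 root). SVP exceeded AGL24 in all 6 libraries. The SVP to SOC1 ratio was 2.24 in Col-0 seedling and 17.0 in Can-0 seedling, 0.692 and 2.25 in root, and 0.162 and 0.127 in bud.

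TEM1 and TEM2 carry an AP2 and a B3 domain and repress FT and gibberellin synthesis. In Col-0 they were level with each other outside the bud. TEM1 (AT1G25560, chromosome 1, 8981556 to 8983314, minus strand) stood at 62.0 and 31.3 RPKM in Col-0 and Can-0 seedling, 18.7 and 10.7 in root and 8.79 and 6.46 in bud. TEM2 (AT1G68840, chromosome 1, 25880155 to 25882222, plus strand) stood at 62.5 and 11.5 RPKM in seedling, 19.1 and 11.7 for root and 0.288 and 0.216 for bud. In bud TEM1 was therefore 30.5 times TEM2 in Col-0 and 29.8 times in Can-0, against 0.993 and 2.72 times in seedling and 0.977 and 0.911 times in root. The bud ratios rest on about 12 TEM2 reads in Col-0 and 9 in Can-0.

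TEM1 fell from seedling to bud (-2.40 ± 0.17, adjusted p = 0.00126) and was higher in seedling than in root (1.57 ± 0.17, adjusted p = 0.00206). Its lower level in bud than in root (-0.83 ± 0.17, adjusted p = 0.0151) was lost without Col-0 root, Col-0 bud or Can-0 root (adjusted p = 0.0579 to 0.0857). TEM2 was lower in bud than in seedling (-4.49 ± 0.57, adjusted p = 0.00513) and than in root (-3.68 ± 0.57, adjusted p = 0.00573). Between seedling and root it did not pass (0.82 ± 0.57, adjusted p = 0.275), since Col-0 was 3.27 times higher in seedling and the Can-0 values stood at 11.5 and 11.7 RPKM. It passed without Can-0 seedling (1.80, adjusted p = 0.00926).

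SMZ and SNZ are paralogs of the APETALA2 type and targets of the microRNA miR172, which accumulates as plants age. They are shown with the mature miRNA because their complementary sites set this branch of repressors apart from TEM1 and TEM2. In RefSeq's TAIR10.1 the mature miR172a lies at chr2:11942918-11942938 on the minus strand, with bases 2 to 8, its seed, in capitals below. The sites lie in coding sequence, and capitals there mark bases identical to the exact complement of miR172a. Pairs of G with U are thus in lower case and counted as mismatches. Sites of the 4 relatives TOE1, TOE2, TOE3 and AP2 are set beside them.
miR172a: aGAAUCUUgaugaugcugcau
SMZ, chr3:20373774-20373794, minus strand: uUGCAGCAUCAUCAgGAUUCc
SNZ, chr2:16389066-16389086, minus strand: uUGuAGCAUCAUCAgGAUUCc
TOE1, chr2:12226233-12226253, minus strand: caGCAGCAUCAUCAgGAUUCU
TOE2, chr5:24210889-24210909, plus strand: AUGCAGCAUCAUCAgGAUUCU
TOE3, chr5:26802175-26802195, minus strand: ugGCAGCAUCAUCAgGAUUCU
AP2, chr4:17403019-17403039, plus strand: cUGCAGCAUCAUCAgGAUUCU
Of the 21 bases, 18 match in SMZ and 17 in SNZ. A site with at most 4 mismatches was found in 39 of 31342 genes, or 0.124%, and the other 8 flowering genes had at least 7 mismatches at their best position. The 5 MIR172 loci were listed at 0 in every library, so miR172 itself was not measured here.

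The paralogs SMZ and SNZ had different tissue patterns. SNZ (AT2G39250, chromosome 2, 16388691 to 16391176, minus strand) stood at 59.9 and 62.4 RPKM in Col-0 and Can-0 seedling, 0.142 and 0.140 in root and 3.17 and 2.58 in bud. SMZ (AT3G54990, chromosome 3, 20373718 to 20376522, minus strand) stood at 11.0 and 7.14 RPKM in seedling, 20.6 and 14.1 for root and 2.65 and 2.45 for bud. SNZ was thus 5.44 and 8.74 times SMZ in seedling, SMZ was 145 and 101 times SNZ in root, and in bud SNZ was 1.19 and 1.05 times SMZ. The root ratios rest on about 5 SNZ reads in each library. Counting error alone allows 0.0465 to 0.334 RPKM in Col-0 and 0.046 to 0.330 in Can-0. No tissue overlapped with another for either gene.

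SNZ was lower in bud than in seedling (-4.01 ± 0.16, adjusted p = 0.000285). It was higher in bud than in root (1.76 ± 0.16, adjusted p = 0.00101; 3.62 with 0.1 added), and its difference between seedling and root was the widest of the 9 genes tested (5.77 ± 0.16, adjusted p = 9.1e-05). SMZ was lower in bud than in seedling (-1.48 ± 0.18, adjusted p = 0.00461) and than in root (-2.35 ± 0.18, adjusted p = 0.000657). SMZ was lower in seedling than in root (-0.87 ± 0.18, adjusted p = 0.0135), a call lost without Col-0 root or Can-0 seedling (adjusted p = 0.0820 and 0.0703). SMZ overlaps AT3G54980 on the other strand by 544 bases, and whether reads were assigned by strand is not given in the sources used here. That neighbour stood at 4.63 to 7.28 RPKM in the 6 libraries.

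**Figure D2:**
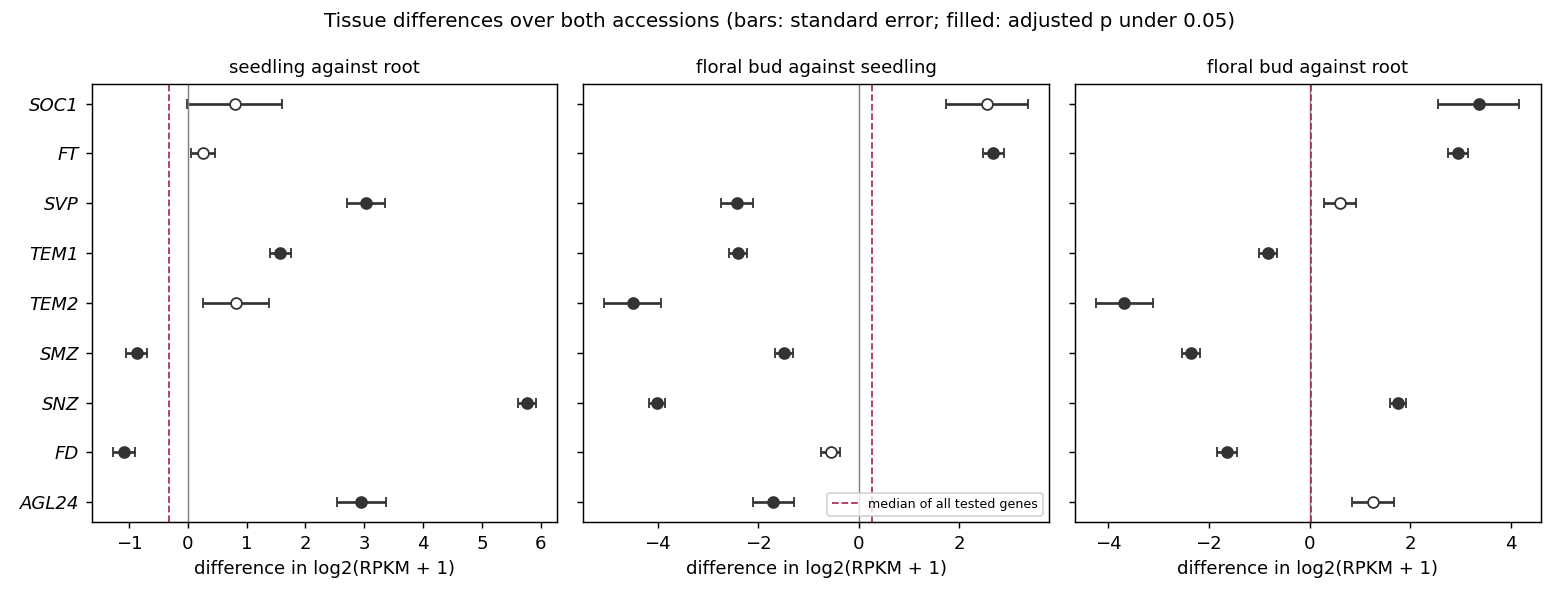
Difference in log2(RPKM + 1) between tissues over both accessions for the 9 tested genes, with standard errors, filled points for an adjusted p under 0.05 and a dashed line at the median of all tested genes. In bud against seedling the 5 repressors lie between -4.49 and -1.48. Of the promoters, AGL24 lies at -1.69 and FD at -0.56, while FT lies at 2.68 and SOC1 at 2.56. The call on FT was built in, and SOC1 and FD did not pass.

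Over the tissue comparisons, calls on these genes stood beside frequent calls on all genes. Between seedling and root 4 of the 9 passed upward (SVP, TEM1, SNZ, AGL24) and 2 downward (SMZ, FD), where 59.5% of the 20830 tested genes passed, 18.5% upward and 41.0% downward. Between bud and seedling 1 passed upward (FT, whose call was built in) and 6 downward, where 44.8% of all genes passed, 32.8% upward and 12.0% downward. Those 6 were the repressors SVP, TEM1, TEM2, SMZ and SNZ with AGL24. Between bud and root 3 passed upward (SOC1, SNZ and FT, whose call was again built in) and 4 downward (TEM1, TEM2, SMZ, FD). Of all genes 57.3% passed there, 30.3% upward and 27.0% downward. The median difference of the 9 was 0.82, -1.69 and 0.61 in these comparisons, beside -0.33, 0.27 and 0.02 over all tested genes. The scale of the whole table shifts with normalization: with median-centred values the medians over all genes became -0.06, -0.21 and -0.19. The splits of calls on all genes then became 4818 upward and 6135 downward, 3385 and 5522, and 5336 and 7488, from 3849 and 8549, 6837 and 2499, and 6309 and 5623. None of the 9 genes changed direction under either scaling in these comparisons.

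Between the accessions, SOC1 was lower in Can-0 seedling and root and level in bud, while TEM2 and AGL24 were lower in Can-0 seedling and SVP in Can-0 root. These are comparisons of 1 library with 1, so they have no replicate check. The bud libraries also came from different runs, and those of seedling and of root from different lanes. Intervals on a ratio cover counting error only. Counting genes that reached 1 RPKM in one or both libraries of a tissue, 7 of 8 were lower in Can-0 seedling, 6 of 6 in root and 7 of 8 in bud, with median differences of -0.86, -0.71 and -0.26. Over all such genes 45.4%, 52.4% and 45.1% were lower in Can-0, with medians of 0.04, -0.02 and 0.04.

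SOC1 was 12.9-fold lower in Can-0 than in Col-0 seedling (25.1 against 1.95 RPKM, about 813 and 61 reads, 95% counting interval 9.89 to 16.9). In root it was 12.4-fold lower (11.9 against 0.959 RPKM, about 387 and 31 reads, interval 8.75 to 18.8). In bud the accessions were level (50.6 RPKM in each, Can-0 to Col-0 ratio 0.999, interval 0.932 to 1.07). The difference of -3.15 in seedling was matched or exceeded downward by 38 of 17901 genes, counting SOC1, or 0.212%. That of -2.72 in root was matched or exceeded by 100 of 18973, or 0.527%.

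TEM2 was the next lowest, at 62.5 RPKM in Col-0 and 11.5 in Can-0 seedling, 5.43-fold lower (interval 4.91 to 6.01). In root it was 1.63-fold lower (interval 1.45 to 1.83), and in bud both libraries were under 1 RPKM. Its partner TEM1 was 1.98-fold lower in Can-0 seedling, 1.75-fold lower in root and 1.36-fold lower in bud. AGL24 was 2.71-fold lower in Can-0 seedling (interval 2.22 to 3.33) and 2.57-fold lower in bud (interval 1.67 to 3.95). In root both AGL24 libraries were under 1 RPKM and Can-0 was the higher (ratio 2.47, interval 0.806 to 11.7). SVP was 3.82-fold lower in Can-0 root (interval 3.005 to 4.87), 1.70-fold lower in seedling and 1.28-fold lower in bud. Companion cell markers in seedling summed to 244 RPKM in Col-0 and 214 in Can-0, and leaf markers to 11676 and 9675, and their part in these differences was not tested.

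SMZ was 1.54-fold lower in Can-0 seedling, 1.45-fold lower in root and 1.09-fold lower in bud, the last with an interval of 0.748 to 1.59, which includes 1. SNZ was the most even gene: its Can-0 to Col-0 ratio was 1.04 in seedling (interval 0.981 to 1.11), 0.989 in root on about 5 reads each, and 0.814 in bud (interval 0.606 to 1.08). FD had ratios of 0.840, 0.860 and 1.40, each with an interval that includes 1. FT was lower in Can-0 bud by a ratio of 0.764 (interval 0.595 to 0.980).

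A difference of at least 1 was reached by 3 genes in seedling (SOC1, TEM2, AGL24), all lower in Can-0, where 9.01% of all genes reached it in either direction and 4.23% were lower in Can-0. In root it was reached by 2 (SOC1, SVP), both lower in Can-0, beside 7.43% of all genes in either direction and 4.42% lower. In bud it was reached by 0, beside 7.5% of all genes, 3.63% lower and 3.87% higher in Can-0. Averaged over the tissues with limma, none of the 9 passed between accessions (0.96% of all genes did, 0.403% higher and 0.557% lower in Can-0). That test used the tissues in place of replicates, so a difference that varies between tissues widens its error. The nearest was TEM1 (-0.70 ± 0.14, adjusted p = 0.133). SOC1 had -1.96 ± 0.66 (adjusted p = 0.258). All 9 differences were below 0, as were 46.2% over all tested genes. Without adjustment 3 of the 9 were under 0.05 in limma (TEM1, SVP and SOC1), as were 17.2% of all genes.

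Whether the accession difference in bud departs from that in seedling and root was examined with a further term, chosen after the values had been seen. The term leaves 1 residual degree of freedom. For SOC1 the departure was 2.93 ± 0.29 (adjusted p = 0.922, unadjusted p = 0.00675). By limma 0 of 20830 genes, or 0.0%, passed, with 961 genes, or 4.61%, at an unadjusted p under 0.05. For the other 8 genes the departure lay between -0.40 and 1.42, with adjusted p of 0.922 to 0.999.

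**Figure D3:**
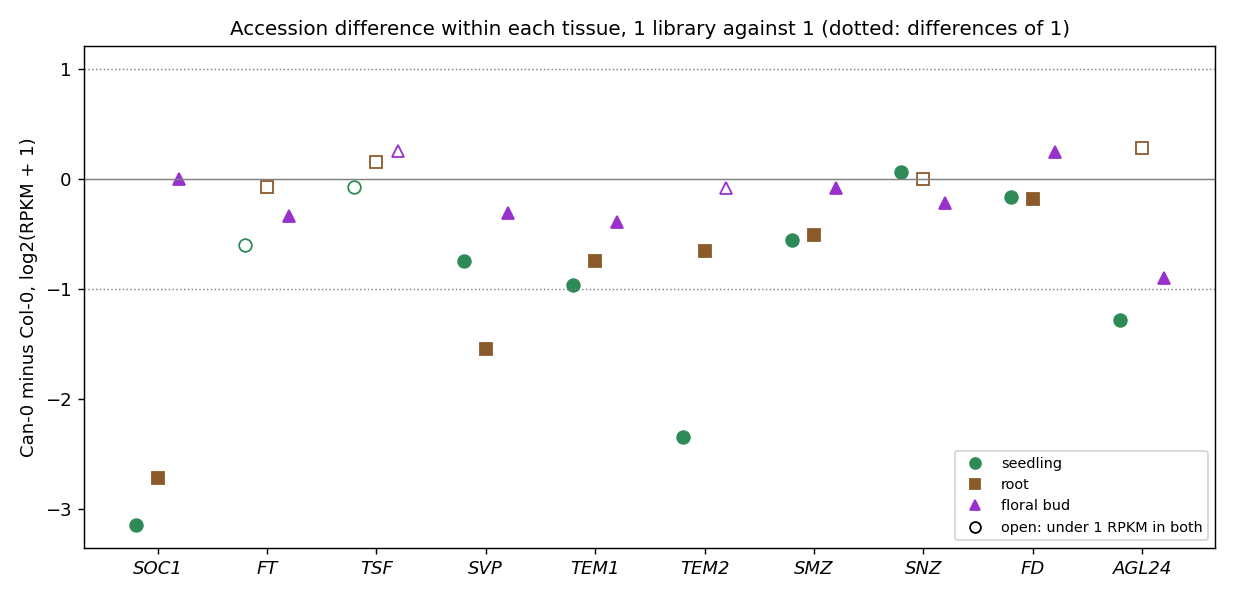
Can-0 minus Col-0 in log2(RPKM + 1) for each gene in seedling, root and bud, 1 library against 1, with open symbols where both libraries were under 1 RPKM. SOC1 lies at -3.15 in seedling and -2.72 in root while its accessions are level in bud, and SNZ lies between -0.22 and 0.06.

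FLC, the MADS-box repressor that binds SOC1 and FT together with SVP, stood at 4.85, 0.124 and 0.123 RPKM in Col-0 seedling, root and bud and at 104, 106 and 27.8 in Can-0. It was higher in Can-0 in all 3 tissues (5.14 ± 0.50, adjusted p = 0.0374). The part of FLC in the SOC1 levels was not tested. Its relatives FLM (-1.75 ± 0.15, adjusted p = 0.0298) and MAF3 (-4.01 ± 0.20, adjusted p = 0.0130) were lower in Can-0. MAF3 reached 1 RPKM in the Col-0 libraries alone, so its call was built in. Over all genes 200 passed between accessions with all 6 libraries and 0 without either bud library. MAF5, at 1.07, 0.370 and 2.33 RPKM in Col-0 and 9.92, 1.30 and 19.6 in Can-0, did not pass (1.93 ± 0.41, adjusted p = 0.145), but was higher in bud than in root (2.22 ± 0.50, adjusted p = 0.0191).

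**Figure D4:**
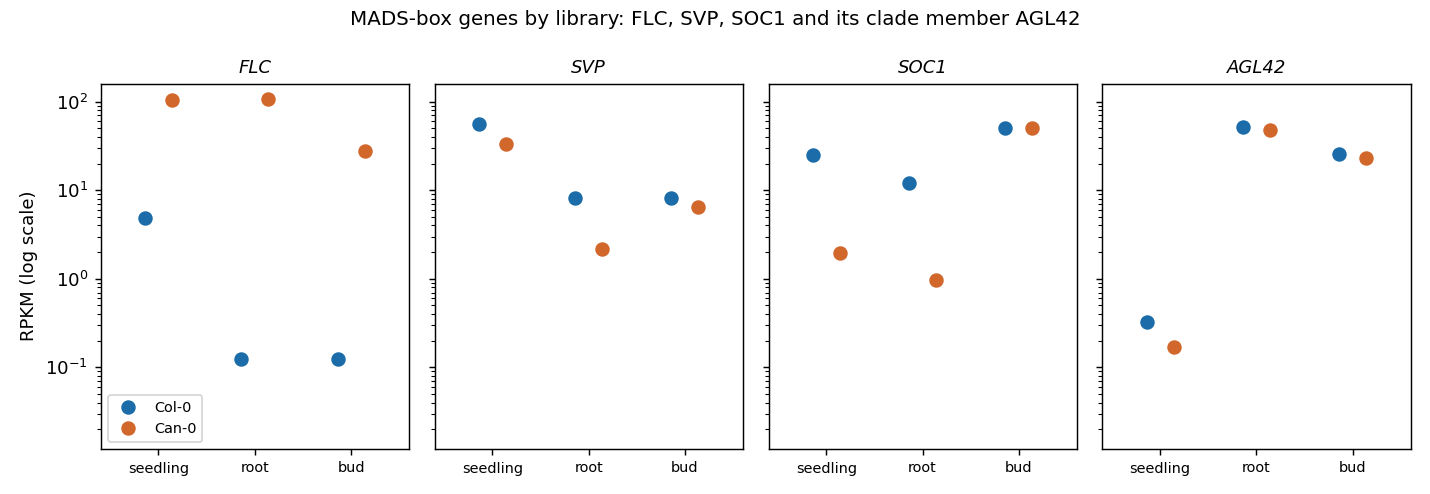
RPKM (log axis) of FLC, SVP, SOC1 and AGL42 in each library. FLC lies at 27.8 to 106 RPKM in Can-0 and at most 4.85 in Col-0, SOC1 is apart between the accessions in seedling and root and level in bud, and AGL42 is highest in both roots.

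Other genes of the flowering network, in lists written with earlier results of these data known, are given by their counts, to be read against the shares of all genes above. A gene that reached 1 RPKM in a single tissue entered the test through that tissue, so its call against the others was built in. Such genes are given as values.

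The SOC1 clade is the set of MADS-box genes closest to SOC1, and 3 of its 5 members were tested. AGL42 stood at 51.8 and 47.9 RPKM in Col-0 and Can-0 root, 25.6 and 23.0 in bud and 0.324 and 0.168 in seedling, and was lower in seedling than in root (-5.35 ± 0.12, adjusted p = 8.78e-05). AGL19 was lower in seedling than in root as well (-2.85 ± 0.16, adjusted p = 0.000305). AGL14 stood at 22.2 and 32.8 RPKM in root and at most 0.262 elsewhere, and entered the test through root. Over the 3 tissues AGL42 averaged 25.9 RPKM in Col-0 and 23.7 in Can-0.

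Among the relatives and partners of FT, 3 of the 4 tested genes entered through root alone. ATC, a relative of the floral repressor TFL1, stood at 51.3 and 74.2 RPKM in root and at most 0.0506 elsewhere, and MFT at 2.99 and 4.24 in root and 0 in the other 4 libraries. FTIP1, which helps export FT, stood at 6.29 and 6.24 RPKM in root and 3.84 and 3.38 in seedling (-0.66 ± 0.18, adjusted p = 0.0332), a call lost with median-centred values (-0.39, adjusted p = 0.139) and with quantile normalization (-0.32, adjusted p = 0.186).

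Of the 6 other AP2-like and RAV factors, 3 were lower in bud than in seedling and 2 higher. TOE1, a miR172 target and repressor, stood at 0.378 and 0.585 RPKM in bud and 48.2 and 33.4 in seedling (-4.80 ± 0.26, adjusted p = 0.000600). EDF3, a RAV relative of TEM1, was highest in root, at 22.9 and 32.4 RPKM, and lower in bud than in seedling (-1.85 ± 0.29, adjusted p = 0.00895). TOE3, another miR172 target, went the other way, at 15.0 and 11.7 RPKM in bud and 4.69 and 1.69 in seedling (1.86 ± 0.40, adjusted p = 0.0209; 1.38 and adjusted p = 0.0536 with median-centred values).

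The SPL factors, which miR156 holds down in young plants, were higher in bud than in seedling in 6 of the 6 genes that did not enter through bud alone, under both scalings as well. SPL9 stood at 19.9 and 20.6 RPKM in bud and 2.33 and 3.21 in seedling (2.51 ± 0.18, adjusted p = 0.00119). SPL4 stood at 18.6 and 61.1 RPKM in bud and 4.62 and 2.14 in seedling (3.05 ± 0.62, adjusted p = 0.0181). SPL3 stood at 11.2 and 12.2 RPKM in bud and at most 0.360 elsewhere.

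Of the 5 floral meristem identity genes 4 entered through bud alone. Among them AP1 stood at 116 and 115 RPKM in Col-0 and Can-0 bud and at most 0.0360 elsewhere, and FUL at 68.0 and 56.6 in bud and at most 0.900 elsewhere. SEP3 stood at 252 and 274 RPKM in bud and 1.92 and 2.07 in seedling (6.46 ± 0.13, adjusted p = 0.000117).

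Of 12 tested photoperiod genes 3 were higher and 1 lower in seedling than in root, beside 18.5% and 41.0% of all genes, and 2 were higher in bud than in seedling, beside 32.8%. The blue-light receptor CRY1 was higher in seedling than in root (1.80 ± 0.20, adjusted p = 0.00205). CDF2, a repressor of CO and FT, was higher in bud than in seedling (1.83 ± 0.39, adjusted p = 0.0207). CDF5, a relative of CDF2, passed as well (1.18 ± 0.19, adjusted p = 0.00994), but not with median-centred values (0.69, adjusted p = 0.0551) or quantile normalization (0.46, adjusted p = 0.127). CO, the activator of FT, was under 1 RPKM in every library (0.138 to 0.472).

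Calls on the Polycomb-type repressors and on the autonomous pathway, which holds FLC down, rested on the scaling. Of 5 Polycomb-type genes 3 were higher in bud than in seedling and 2 lower in seedling than in root, and with limma 0 passed in either comparison under either scaling. EMF1 went from 0.94 (adjusted p = 0.0123) to 0.45 with median-centred values (adjusted p = 0.0696), and EMF2 from 0.42 (adjusted p = 0.0469) to -0.06 (adjusted p = 0.707). CLF in seedling against root went from -0.85 (adjusted p = 0.0206) to -0.58 (adjusted p = 0.0524). Of 7 autonomous pathway genes 2 were higher in bud than in seedling, beside 32.8% of all genes. With median-centred values FLK went from 0.51 (adjusted p = 0.0461) to 0.03 (adjusted p = 0.876) and FCA from 0.52 (adjusted p = 0.0498) to 0.03 (adjusted p = 0.878), and with quantile normalization FCA turned to -0.07. LD in seedling against root went from -0.52 (adjusted p = 0.0351) to -0.25 with median-centred values (adjusted p = 0.194).

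GA3ox1 and GA3ox2 make the active gibberellin and are repressed by TEM1 and TEM2. GA3ox1 stood at 4.61 and 2.15 RPKM in Col-0 and Can-0 seedling, 8.96 and 4.21 in root and 0.349 and 0.864 in bud, and was lower in bud than in root (-2.18 ± 0.40, adjusted p = 0.00965). GA3ox2 stood at 6.73 and 2.90 RPKM in root and at most 0.323 elsewhere, and entered the test through root. GA20ox2, which makes their precursor, was higher in bud than in root (1.08 ± 0.28, adjusted p = 0.0276), a call lost with median-centred values (0.87, adjusted p = 0.0589) and with quantile normalization (0.82, adjusted p = 0.0682). In the FLC clade FLM (-1.34 ± 0.18, adjusted p = 0.00640) and FLC (-2.12 ± 0.61, adjusted p = 0.0465) were lower in bud than in seedling. Except in the FLC clade, no gene of these lists passed between the accessions.

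For each tested gene the genes most like it were those at the smallest distance between the 6 values of log2(RPKM + 1), each centred on its own mean, among 20830 genes. TEM1 lay closest to RAV1, its relative (distance 0.63). FD lay closest to the receptor kinase gene SRF7 (0.18) and SNZ to CYP706A6 (0.50) and MYB29 (0.53), a regulator of aliphatic glucosinolates. TEM2 and SOC1 lay farther from their nearest genes than the other 7, TEM2 at 1.55 from TOE1 and SOC1 at 1.61 from BXL1. SVP lay closest to BEH1 (0.71), FT to SPPL5 (0.42), SMZ to AT1G72130 (0.36) and AGL24 to AT4G00780 (0.55). RAV1 stood at 69.8 and 38.2 RPKM in Col-0 and Can-0 seedling, 19.8 and 10.3 in root and 11.4 and 11.7 in bud.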

How the data were processed

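The authors deposited 1 table of RPKM per library, with gene identifiers, per the file headers. The submitters' processing notes name the TAIR9 and TAIR10 builds. Aligner, counting method, use of strand and the reference for Can-0 reads: not given in the sources used here. Reads were estimated from the step between small RPKM values. Of these values 47.8% to 59.3% were whole within 0.1 read, so no count test was run, and intervals (95%, exact) cover counting error only.

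From these values log2(RPKM + 1) was fitted with limma 3.58.1 in R 4.3.3 for 20830 genes, those that reached 1 RPKM in 2 or more of the 6 libraries. Terms were tissue and accession (2 residual degrees of freedom), with empirical Bayes with trend, two-sided tests and Benjamini-Hochberg adjustment. All libraries are labelled as replicate 1, so p-values between tissues measure how tissue differences vary between 1 library of each accession. Those between accessions measure how the accession difference varies between the tissues, not between replicates. Within a tissue no test is possible, and called means a difference of at least 1.

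The genes, lists and tests were chosen with earlier results of these data known. The text names all 10 genes and, from each other list, up to 3 called genes with the widest tissue differences and any called between accessions, and for likeness the nearest genes. CO was named after its values were seen. Scalings of the other lists, and which genes entered through 1 tissue or accession alone, were added after seeing the data. Loci, miRNAs and sites are from RefSeq's TAIR10.1, and copies were sought with BLAST+ 2.17.0. The fit was also run on simulated data with independent noise in each library, which cannot check the calls made here. Alternatives were another pseudocount, filters, scalings, no trend and leaving out each library.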

Additional observations from a re-analysis of the deposited data

How the results depend on the processing

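Libraries could not be paired by replicate number, because all 6 carry the same one. The accession term already makes each tissue comparison within accessions. With 1 library per group, errors rest on 2 residual degrees of freedom, or 1 with a library left out or the further term, and genes under 1 RPKM are limited by depth. Of the 9 tested genes, 4 to 7 passed between seedling and root over the alternatives, 5 to 8 between bud and seedling, 5 to 8 between bud and root, and 0 between accessions under each. With 0.1 added in place of 1, the count reaching a difference of 1 in bud went from 0 to 1 (AGL24, -1.30). With median-centred values that in seedling went from 3 to 4 (TEM1, -1.02). SOC1 within tissues stood at -3.62 in seedling and -3.51 in root with 0.1 added. With median-centred values it stood at -3.20 and -2.67.

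Over the fits that leave out 1 library, seedling against root ranged from -0.1707 to 1.8028 for TEM2 and from -0.0922 to 1.6926 for SOC1, the negative values coming without Col-0 seedling. The accession difference of SNZ ranged from -0.1106 to 0.0284, above 0 without either bud, and that of FD from -0.1732 to 0.038, above 0 without a seedling (0.0292) or a root. None of the values with a turned sign passed the test. The accession difference of FT in bud against the other tissues turned from -0.00 to 1.23 with 0.1 added and 0.14 with quantile normalization. Leaving out a library from that fit gives no test, because no residual degree of freedom is left. The cause of these changes was not tested. Of the other tested values of these genes, 13 lost the call, 12 gained it and 428 kept their direction and side of the threshold.

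Genes passing between seedling and root went from 12398 to 8068 without Col-0 root. Between bud and seedling they went from 9336 to 6201 without Col-0 seedling, 2941 without Col-0 bud and 2859 without Can-0 bud. Between bud and root they went from 11932 to 7722 without Col-0 root, 6953 without Col-0 bud and 6584 without Can-0 bud. Between accessions they went from 200 to 80 without a filter, to 68 with a mean of at least 5 RPKM, and to between 0 and 120 without 1 library.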
